A study of Mus musculus with 2 samples.

Results

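Glutathione is the main thiol that cells use against oxidants, and ferroptosis is a form of cell death driven by iron and by the peroxidation of membrane lipids. Glutathione is made from glutamate, cysteine and glycine in consecutive steps, is oxidised while it reduces peroxides, and is then recycled at the cost of NADPH, while other enzymes degrade it. GPX4 uses glutathione to reduce lipid peroxides in membranes, AIFM2 protects membranes without glutathione, and ferritin stores the iron that would otherwise feed peroxidation. The 10 genes described here cover these steps and were taken by symbol from the count matrices. They are Gclc, Gclm and Gss for synthesis, Gsr for recycling, Chac1 and Ggct for breakdown, Gpx4 and Aifm2 for lipid peroxides, and Fth1 and Ftl1 for iron storage. Each was found as 1 row among 22587 gene symbols.

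The cells came from the hippocampus of CT mice (Nestin-CreERT2;ROSA26YFP) and Opa1 cKO mice (the same alleles with Opa1 flox/flox), which all received tamoxifen (TAM) at 8 weeks of age and were examined at 12 weeks of age. OPA1 is a protein of the inner mitochondrial membrane that is needed for fusion and for the shape of the cristae, and the design asks what its loss does to neural stem cells (NSCs). In these mice tamoxifen acts on cells that express Nestin, whose progeny then also carry YFP. The sorted YFP+ cells also included other cell types, and how these came to be there was not tested. For each genotype the cells of 3 mice were combined and made into 1 library with 10x Genomics 3′ chemistry, in which each captured mRNA molecule is counted once by its unique molecular identifier (UMI).

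As there was 1 library per genotype, no test between genotypes was possible and no p-value is given. Levels are UMIs per 1000000 UMIs of the group (CPM), and log2 ratios compare the CPM of 2 groups. Ranges in parentheses are 95% intervals of counting error alone, which leave out differences between mice and between preparations. A gene was counted as higher or lower when its ratio passed 1.5-fold with at least 20 UMIs over both groups. Of 4634 CT and 6475 Opa1 cKO barcodes, 1790 and 3764 passed the filters, with medians of 2555 and 3008 UMIs per cell. A total of 36 barcodes occurred in both libraries, 9 of them after filtering. Names of cell classes end in -like because they rest on marker genes. Opa1 itself stood at 18.5 CPM (70 UMIs) in CT against 8.13 CPM (69 UMIs) in Opa1 cKO NSC pool-like cells, a log2 ratio of -1.19 (-1.69 to -0.69). The assay reads the 3′ end and can also count transcripts that lack deleted exons.

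The NSC pool-like class held 1378 CT and 2582 Opa1 cKO cells and was used for the main comparison. It joins the cluster led by mitochondrially encoded (mt-) genes and Apoc1, with 1374 CT and 792 Opa1 cKO cells, and the cluster led by Nupr1, Gdf15, Hmox1 and Chac1, with 4 CT and 1790 Opa1 cKO cells. Different clusters therefore supplied most cells of this class in the 2 libraries. The share of UMIs from mt- genes also differed. In the median NSC pool-like cell it was 5.24% for CT but 0.671% for Opa1 cKO. Cells were therefore also grouped by this share as mt-low (under 1%), mt-intermediate (1% to under 3%) and mt-normal (3% or more). In Opa1 cKO these groups held 1574, 240 and 768 cells, whereas CT had 3 mt-low, 107 mt-intermediate and 1268 mt-normal cells. The mt-low group and the stress-gene cluster held nearly the same cells, as 1573 of the 1574 mt-low, 205 of the 240 mt-intermediate and 12 of the 768 mt-normal Opa1 cKO cells were in it. The clusters were formed on all genes, the 10 included. Levels in NSC pool-like cells are therefore compared between genotypes and groups of mt- share and not between the clusters of this class. Each class is itself 1 or more clusters, so levels and ratios between classes, given below, describe groups that these genes helped to form. Low mt- share and membership of the stress-gene cluster moved together, and their separate parts in what follows were not tested.

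The promoter of Chac1 is shown because this gene had the largest ratio of the 10. Its RefSeq promoter window, which starts before and ends after the RefSeq start, was searched on both strands, and the 237 bases of it that lie before the GENCODE start are printed (GRCm38.p6, chr2:119350992-119351228, plus strand). The motif searched for was TGATGNAA, the core of the C/EBP-ATF response element to which ATF4 binds with C/EBP partners. A 30-base window of the Gclm promoter (chr3:122245413-122245442, plus strand) is shown for TGACNNNGC, the core of the antioxidant response element to which NRF2 binds. Capitals mark the matches, both of which read on the opposite strand, at -193 from the RefSeq start of Chac1 and at -134 from that of Gclm.
Chac1: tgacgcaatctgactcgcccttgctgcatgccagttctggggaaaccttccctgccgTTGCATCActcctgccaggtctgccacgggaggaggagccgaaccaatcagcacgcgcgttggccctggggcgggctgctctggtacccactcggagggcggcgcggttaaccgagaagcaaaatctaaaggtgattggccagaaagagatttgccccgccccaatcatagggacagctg
Gclm: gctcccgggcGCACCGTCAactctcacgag
Of the 12 promoters that RefSeq lists for 8 of the 10 genes, 1 held TGATGNAA, that of Chac1, against 3.97% of all 32851 RefSeq promoter windows, which are of 1 length. The other motif, TGACNNNGC, occurred in the promoters of Gclm and Ggct and in 12.4% of all promoters. These are matches of letters in short windows and do not show binding.

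In NSC pool-like cells, 5 of the 10 genes were higher in Opa1 cKO than in CT by more than 1.5-fold and none was lower. These were Chac1, Ggct, Fth1, Gpx4 and Gclm. Over all 11299 genes with enough UMIs, 14.0% were higher and 13.1% lower by the same rule. The median log2 ratio was 0.60 over the 10 genes and 0.03 over all genes tested. The 10 genes were chosen with earlier results of these data known. Here and below their counts are therefore not those of a blind choice. Several of the genes lay close to the limit, with Gpx4 at 1.58-fold and Gclm at 1.55-fold just inside it and Gss at 1.49-fold and Ftl1 at 1.47-fold just outside. When each cell was thinned to 1500 UMIs, 3 of the 10 were past it (Chac1, Fth1 and Gclm), as Gpx4 stood at 0.58 on the log2 scale and Ggct had too few UMIs. The shares of all genes given here are for cells without thinning. Without the cells of the stress-gene cluster, of which Chac1 is a leading gene, none of the 8 members with enough UMIs was past 1.5-fold, and Chac1 and Ggct had too few.

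**Figure D1:**
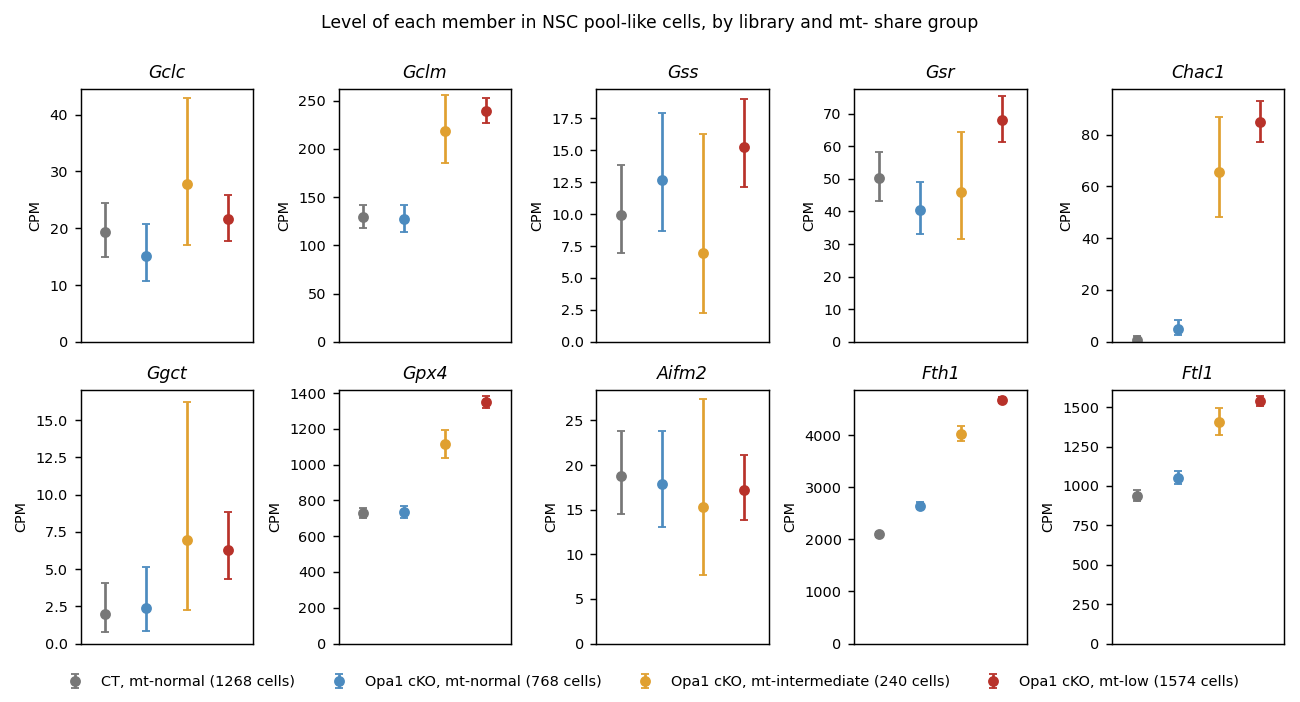
CPM (y axis, from 0, a separate scale per gene) of the 10 genes in NSC pool-like cells of CT mt-normal, Opa1 cKO mt-normal, Opa1 cKO mt-intermediate and Opa1 cKO mt-low groups. Points are levels of summed UMIs and bars 95% counting intervals. Chac1, Gpx4, Gclm, Fth1 and Ftl1 stood highest in the mt-low group, and for Gpx4 and Gclm the mt-normal groups of both genotypes lay together.

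The enzymes of synthesis differed among themselves. Gclc (ENSMUSG00000032350, chr9:77754535-77794485, plus strand) encodes the catalytic subunit of glutamate-cysteine ligase, the rate-limiting enzyme. It stood at 19.3 CPM (15.1 to 24.3) in CT against 20.2 CPM (17.2 to 23.4) in Opa1 cKO NSC pool-like cells, a log2 ratio of 0.06 (-0.34 to 0.48). Its interval includes 0 and lies within 1.5-fold on both sides. Gclm (ENSMUSG00000028124, chr3:122245557-122270732, plus strand) encodes the modifier subunit, which raises the activity of the catalytic subunit. Its level was 131.5 CPM (120.2 to 143.6) in CT against 204.5 CPM (194.9 to 214.3) in Opa1 cKO (log2 ratio 0.64, 0.49 to 0.78). There were 0.147 UMIs of Gclc per UMI of Gclm in CT (0.113 to 0.188) and 0.0986 in Opa1 cKO (0.0837 to 0.115), with intervals that overlap slightly. Within Opa1 cKO this ratio was 0.118 (0.0820 to 0.165) in mt-normal and 0.0900 (0.0735 to 0.109) in mt-low cells, whose intervals also overlap. Gss (ENSMUSG00000027610, chr2:155563181-155592810, minus strand) encodes glutathione synthetase, which adds glycine in the last step. It was detected at 9.26 CPM (35 UMIs) in CT and 13.8 CPM (117 UMIs) in Opa1 cKO (log2 ratio 0.57, 0.02 to 1.16). Gss overlaps the gene Acss2 on the opposite strand, and Gclm overlaps the pseudogene Gm6061, which is not a row of the matrices.

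Gsr (ENSMUSG00000031584, chr8:33652523-33698163, plus strand), which encodes the reductase that regenerates glutathione with NADPH, stood at 49.8 CPM (42.9 to 57.4) in CT against 58.0 CPM (53.0 to 63.3) in Opa1 cKO NSC pool-like cells. The log2 ratio of 0.22 (-0.02 to 0.47) was below the 1.5-fold limit over the whole interval.

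Chac1 (ENSMUSG00000027313, chr2:119351229-119354381, plus strand) encodes a cytosolic enzyme that splits glutathione and is a known target of ATF4. In CT it was represented by 2 UMIs over 1378 NSC pool-like cells, or 0.529 CPM (0.0641 to 1.91). In Opa1 cKO there were 504 UMIs, or 59.4 CPM (54.3 to 64.8). The log2 ratio was 6.81, and because CT had so few UMIs its interval ran from 4.95 to 9.86. Ggct (ENSMUSG00000002797, chr6:54982580-54992950, minus strand) encodes an enzyme of the gamma-glutamyl cycle that acts on gamma-glutamyl amino acids. It was near the detection limit, at 1.85 CPM from 7 CT UMIs against 5.19 CPM from 44 Opa1 cKO UMIs. Its log2 ratio of 1.48 (0.32 to 2.88) therefore has a wide interval whose lower end lies within 1.5-fold.

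Gpx4 (ENSMUSG00000075706, chr10:80047166-80056439, plus strand), the selenoprotein that reduces phospholipid hydroperoxides, stood at 728 CPM (701 to 756) in CT against 1147 CPM (1124 to 1170) in Opa1 cKO. This was a log2 ratio of 0.66 (0.59 to 0.72). Aifm2 (ENSMUSG00000020085, chr10:61715263-61739260, plus strand), also called FSP1, reduces coenzyme Q and so defends membranes without glutathione. Its level was 19.3 CPM (15.1 to 24.3) in CT against 17.2 CPM (14.5 to 20.2) in Opa1 cKO (log2 ratio -0.17, -0.58 to 0.26). Aifm2 was the only one of the 10 with a ratio below 0 in this comparison, and that interval includes 0. It overlaps H2afy2 on the opposite strand.

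Ferritin is a shell of heavy chains, which oxidise iron on entry, and light chains, which help to lay it down as mineral. The heavy chain gene Fth1 (ENSMUSG00000024661, chr19:9980598-9985098, plus strand) stood at 2090.2 CPM (2044 to 2137) in CT against 4018 CPM (3976 to 4061) in Opa1 cKO (log2 ratio 0.94, 0.91 to 0.98). The light chain gene Ftl1 (ENSMUSG00000050708, chr7:45457944-45459884, minus strand) stood at 944 CPM (913 to 975) and 1383 CPM (1358 to 1408), a log2 ratio of 0.55 (0.50 to 0.61). Ferritin as a whole made up 0.303% of the UMIs of CT and 0.540% of those of Opa1 cKO NSC pool-like cells. The heavy chain differed more than the light chain, from 2.22 UMIs of Fth1 per UMI of Ftl1 in CT (2.13 to 2.31) to 2.90 in Opa1 cKO (2.84 to 2.97). Ferritin genes have processed pseudogenes that could take or remove reads by sequence likeness, and of those named for Ftl1 1 was a row of the matrices, with 553 UMIs over all barcodes against 44290 for Ftl1 itself.

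Within the Opa1 cKO library, mt-low and mt-normal NSC pool-like cells shared their preparation and sequencing, and their medians of 2961 and 3041.5 UMIs per cell were close. Here 6 of the 10 genes were higher in mt-low cells by more than 1.5-fold and none was lower, where 22.8% of the 10668 genes tested were higher and 6.47% lower. The median gene lay at 0.24 on the log2 scale in this comparison and the 10 genes at 0.79. Relative to the median gene, 4 of the 10 were past 1.5-fold, namely Chac1, Ggct, Gclm and Gpx4, with Fth1 at 0.58 and Gsr at 0.51. The shares of all genes just given hold without this shift, and none is given with it.

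Chac1 showed the widest gap of the 10 within the library. It stood at 84.9 CPM (77.2 to 93.1) in mt-low, 65.4 CPM (48.1 to 87.0) in mt-intermediate and 4.75 CPM (2.46 to 8.30) in mt-normal cells. The ratio of mt-low to mt-normal was 17.9-fold, or 4.16 on the log2 scale (3.34 to 5.12). Mt-intermediate cells were thus close to the mt-low and far from the mt-normal group. Gpx4 was 1349 CPM (1318 to 1381) in mt-low and 736 CPM (703 to 771) in mt-normal cells, a log2 ratio of 0.87 (0.80 to 0.95). Gclm was 239.6 CPM (226.5 to 253.2) and 127.5 CPM (114.0 to 142.3), a log2 ratio of 0.91 (0.73 to 1.09). For both genes the mt-intermediate group fell between, at 1113 CPM for Gpx4 and 218.5 CPM for Gclm.

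Gsr, which passed the limit in this comparison and not in that of the genotypes, stood at 68.1 CPM (61.2 to 75.5) in mt-low and 40.4 CPM (32.9 to 49.0) in mt-normal cells, a log2 ratio of 0.75 (0.43 to 1.09). Fth1 was 4675 CPM in mt-low and 2649 CPM in mt-normal cells, a log2 ratio of 0.82 (0.78 to 0.86). The other ferritin gene, Ftl1, had 1539.5 and 1052 CPM and a log2 ratio of 0.55 (0.49 to 0.61). Ggct had 33 and 6 UMIs, with a log2 ratio of 1.41 (0.13 to 2.95). Gclc, Gss and Aifm2 had log2 ratios of 0.52 (-0.02 to 1.09), 0.27 (-0.34 to 0.91) and -0.05 (-0.59 to 0.50), and each of these intervals includes 0.

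The genes used as NSC pool markers also differed between these groups. No separate list of astrocyte markers was used, so the class was not divided into stem cells and astrocytes. The summed level of the 12 NSC pool markers was 60543 CPM in mt-low and 83429.6 CPM in mt-normal Opa1 cKO cells, and 75264 CPM in mt-normal CT cells. Apoe made up most of it, with 32647 CPM in mt-low and 50076 CPM in mt-normal Opa1 cKO cells. Of the 12 markers 8 had a lower and 4 a higher level in mt-low cells, the latter being Gfap, at 1389 against 551 CPM, Slc1a3, Sox2 and Sox9. Among lists of other cell types, the 7 microglia markers summed to 132 CPM in mt-low cells, with Cx3cr1 and Tmem119 at 0, and to 121 CPM in mt-normal cells, with all 7 detected. The 6 oligodendrocyte precursor markers summed to 359 and 117 CPM, with 4 and 3 of them detected and Pdgfra and Gpr17 at 0 in both groups. Olig1 made up most of that sum, with 354.6 and 112.1 CPM. The 4 red blood cell markers summed to 280.3 CPM in CT against 8.84 CPM in Opa1 cKO NSC pool-like cells. The part of these differences in the results was not tested.

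When mt-normal Opa1 cKO cells were set against mt-normal CT cells, none of the 8 genes with enough UMIs was past 1.5-fold in either direction. Over all 10382 genes tested, 3.86% were higher and 16.5% lower. Gpx4 stood at 736 CPM in Opa1 cKO and 729 CPM in CT, with a log2 ratio of 0.01 (-0.07 to 0.10). Gclm stood at 127.5 and 129.7 CPM, with a log2 ratio of -0.02 (-0.23 to 0.18). The ferritin genes kept a difference whose interval excludes 0, with log2 ratios of 0.34 for Fth1 (0.29 to 0.39) and 0.16 for Ftl1 (0.09 to 0.24), at a median over all genes of -0.12. Gclc, Gss, Gsr and Aifm2 had log2 ratios from -0.36 to 0.35 whose intervals include 0. Chac1 had 12 UMIs in Opa1 cKO and 2 in CT mt-normal cells, under the minimum of 20, and a log2 ratio of 3.07 (0.90 to 6.27). Ggct had 6 and 7 UMIs. Opa1 itself stood at 11.5 CPM (29 UMIs) in mt-normal Opa1 cKO and 18.2 CPM (64 UMIs) in mt-normal CT cells. That is a log2 ratio of -0.66 (-1.35 to -0.007). In mt-low Opa1 cKO cells it stood at 6.68 CPM (35 UMIs), a log2 ratio of -0.78 (-1.53 to -0.02) to mt-normal Opa1 cKO cells. Whether the mt-normal Opa1 cKO cells had lost Opa1 was not tested.

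**Figure D2:**
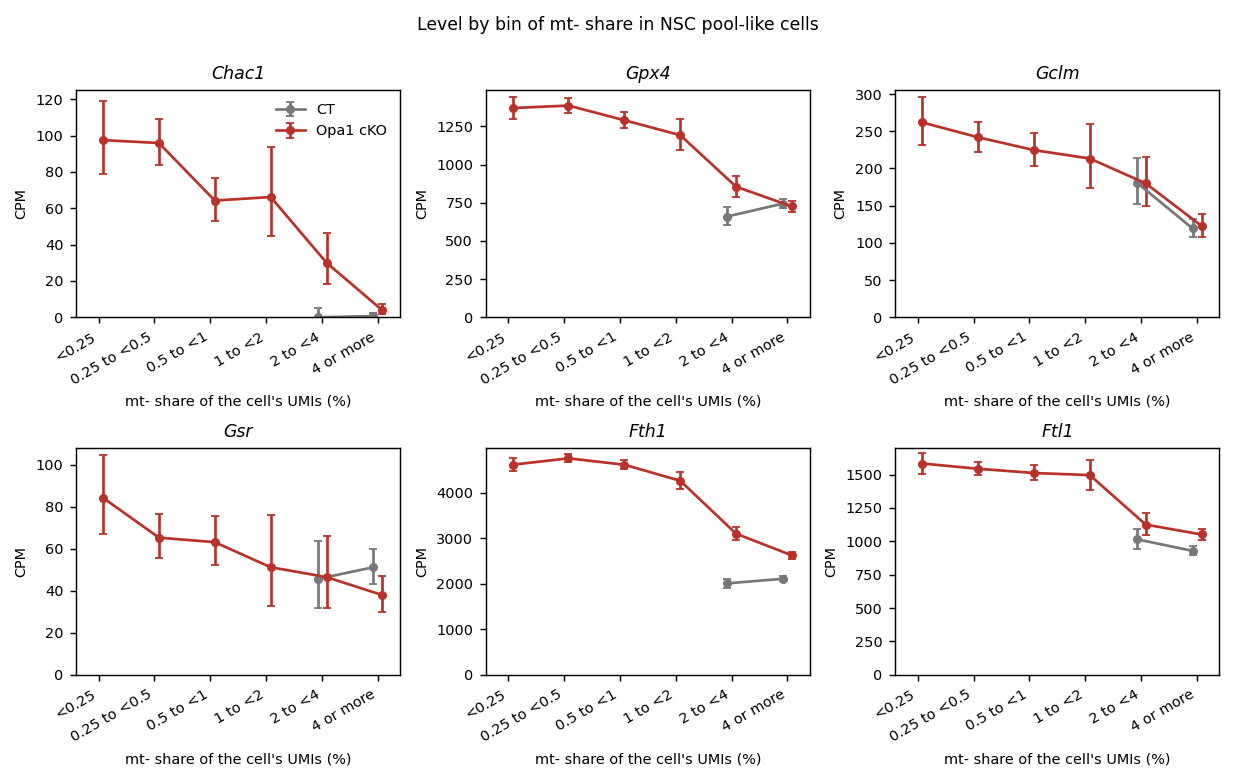
CPM (y axis, from 0) of Chac1, Gpx4, Gclm, Gsr, Fth1 and Ftl1 in NSC pool-like cells by bin of mt- share (x axis, percent of the UMIs of the cell), for CT (grey) and Opa1 cKO (red), with 95% counting intervals. CT has 2 bins with at least 20 cells. Levels in Opa1 cKO were higher in the bins under 1% than in the bin of 4% or more, where Gpx4 and Gclm met the CT level and Fth1 stayed above it.

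Over finer bins of mt- share the levels in Opa1 cKO were graded. Chac1 stood at 97.5 CPM (78.9 to 119.0) under 0.25%, at 95.9 CPM from 0.25% to 0.5% and at 64.2 CPM from 0.5% to 1%. It was 66.2 CPM (45.0 to 93.9) from 1% to 2%, 30.01 CPM (18.3 to 46.3) from 2% to 4% and 3.79 CPM (1.64 to 7.48) at 4% or more. In the same bins Gpx4 ran over 1371, 1387, 1291, 1193, 855 and 726 CPM. Both genes therefore varied least below 0.5% and were lowest at 4% or more. Fth1 kept 4259.7 to 4752 CPM in the 4 bins under 2% and had 3097 CPM from 2% to 4% and 2621 CPM at 4% or more. This gene thus followed the same order with its step between 1% and 4%. At 4% or more CT cells had 2108 CPM of Fth1 (2056 to 2160), below the Opa1 cKO cells of that bin, whereas for Gpx4 they had 745 CPM (714 to 776). In the bin of 2% to 4% Gpx4 was 855 CPM (786 to 928) in Opa1 cKO and 660.0 CPM (603 to 721) in CT. The mt-intermediate groups of the 2 libraries were not matched in mt- share, with medians of 2.62% in CT and 1.48% in Opa1 cKO. Of their cells 2 of 107 in CT and 205 of 240 in Opa1 cKO were in the stress-gene cluster. The CT group had 692 CPM of Gpx4 (593 to 804) against 1113 CPM (1037 to 1193) in the Opa1 cKO group. For Fth1 the levels were 1976 CPM (1805 to 2159) and 4033 CPM (3887 to 4182).

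**Figure D3:**
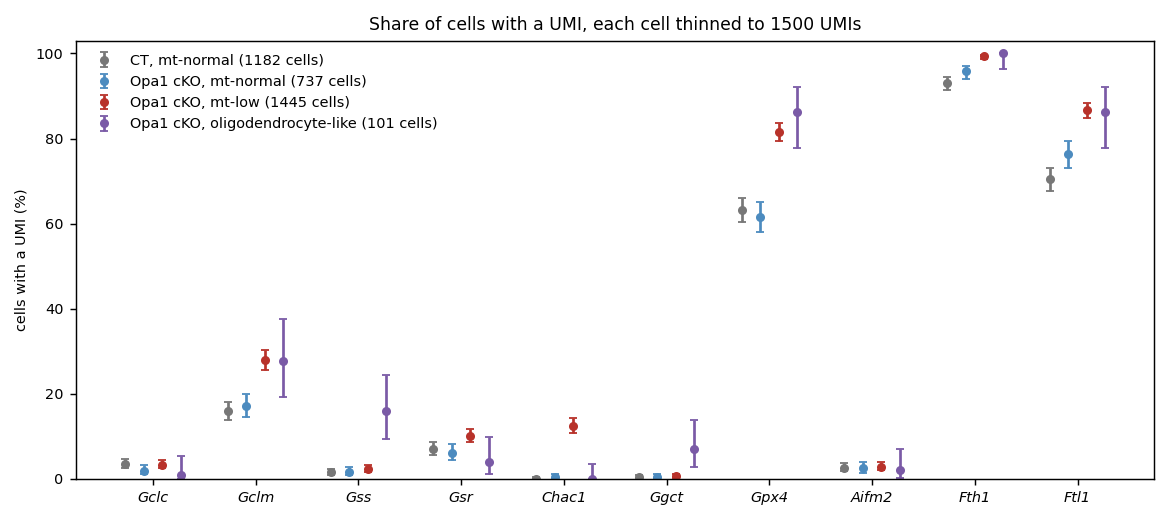
Share of cells with at least 1 UMI of each gene (y axis, percent, from 0), each cell thinned to 1500 UMIs, in CT mt-normal, Opa1 cKO mt-normal and Opa1 cKO mt-low NSC pool-like cells and in Opa1 cKO oligodendrocyte-like cells. Bars are exact 95% binomial intervals. For Chac1 12.4% of mt-low cells and none of the oligodendrocyte-like cells had a UMI.

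The share of cells with a UMI was compared at a common depth of 1500 UMIs per cell, leaving out 94 CT and 201 Opa1 cKO cells with fewer. At that depth 201 of 2381 Opa1 cKO NSC pool-like cells had a Chac1 UMI, or 8.44% (7.36 to 9.63). None of 1284 CT cells did, which allows a share of up to 0.287%. Free RNA in the droplets was read from oligodendrocyte-like cells of the Opa1 cKO library, where 0 of 101 cells had one, which allows up to 3.59%. The share was 12.4% (10.7 to 14.2) in mt-low, 9.55% (5.85 to 14.5) in mt-intermediate and 0.407% (0.0840 to 1.18) in mt-normal Opa1 cKO cells. As the background rests on only 101 cells, it cannot tell whether the last share differs from free RNA. Without thinning, 15.5% of Opa1 cKO and 0.145% of CT NSC pool-like cells had a Chac1 UMI at medians of 2959 and 2494 UMIs, and 1.98% of Opa1 cKO oligodendrocyte-like cells at a median of 3914.

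Few molecules were counted per cell. Of the 1574 mt-low cells 274 had 1 Chac1 UMI, 51 had 2, 15 had 3 and 6 had 4, the highest number seen, and 1228 had none. Gpx4 was found in 81.6% of thinned mt-low cells (79.5 to 83.6), in 61.6% of mt-normal Opa1 cKO cells (58.0 to 65.1) and in 63.3% of mt-normal CT cells (60.5 to 66.0). The corresponding shares for Gclm were 28.0%, 17.1% and 15.9%. For Fth1 they were 99.3%, 95.8% and 93.0%, so its transcripts were in nearly every cell of each group. Oligodendrocyte-like cells of Opa1 cKO had a Gpx4 UMI in 86.1% and a Gclm UMI in 27.7% of cells, at 1400 and 163 CPM. With such levels they give no measure of free RNA for these 2 genes, so expressing cells were not separated from others.

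**Figure D4:**
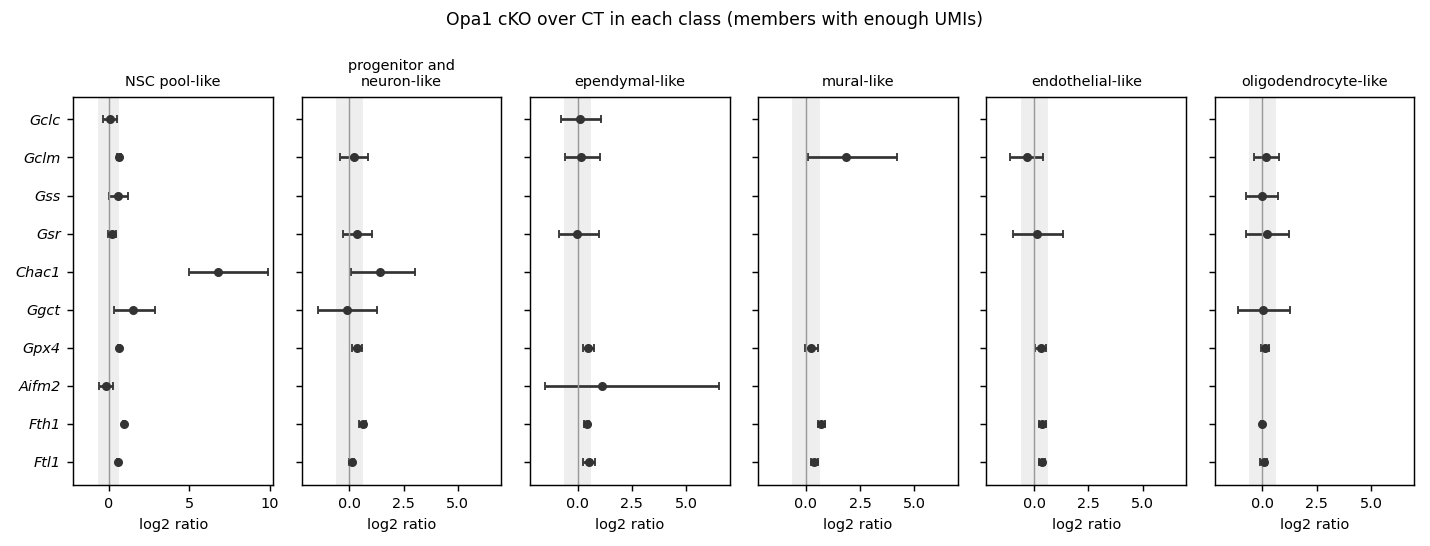
log2 ratio of CPM, Opa1 cKO over CT (x axis, a wider scale for NSC pool-like cells), of each gene with at least 20 UMIs in 6 cell classes. Points are ratios, bars 95% counting intervals, the line marks no difference and the grey band 1.5-fold. Oligodendrocyte-like cells had Gpx4, Fth1 and Ftl1 close to 0.

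Across the cell classes the 10 genes had distinct patterns. Chac1 in Opa1 cKO was highest in NSC pool-like cells (59.4 CPM), followed by activated NSC-like cells at 51.3 CPM (39.8 to 65.2) and progenitor and neuron-like cells at 35.9 CPM (22.2 to 54.9), and the intervals of neighbours in this order overlap. The other classes of that library had 1 to 4 Chac1 UMIs each. Mural-like cells were highest of these at 11.9 CPM (3.25 to 30.5), an interval that overlaps that of progenitor and neuron-like cells. Ependymal-like cells had 4.21 CPM (1.15 to 10.8) from 4 UMIs. The median mt- share in that library was 0.684% in ependymal-like and 0.671% in NSC pool-like cells. The part of mt- share in these levels was not tested. Fth1 was led by oligodendrocyte-like cells, known for their iron content, with 24301 CPM in CT against 23713 CPM in Opa1 cKO. Ependymal-like cells followed with 5991 CPM (5541 to 6467) and 7983 CPM (7805 to 8165), and progenitor and neuron-like cells were lowest with 942 and 1432 CPM. For Ftl1 this order did not hold, and CT NSC pool-like cells had the lowest level of the 7 classes in that library, 944 CPM. UMIs of Fth1 per UMI of Ftl1 accordingly ran from 0.394 in CT progenitor and neuron-like cells to 13.7 in CT oligodendrocyte-like cells.

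Gpx4 in CT was highest in oligodendrocyte-like cells at 1299 CPM (1170 to 1437) and ependymal-like cells at 1242 CPM (1042 to 1469), which did not differ beyond their intervals, and lowest in progenitor and neuron-like cells at 538 CPM (472 to 610). Gclc was led in both libraries by ependymal-like cells, with 109.6 CPM (56.6 to 191) in CT against 116.8 CPM (96.1 to 141) in Opa1 cKO. The CT value rests on 12 UMIs, and its interval overlaps those of oligodendrocyte-like, mural-like and activated NSC-like cells. Gss was highest in oligodendrocyte-like cells in both, with 93.8 CPM (61.8 to 136) and 91.8 CPM (65.6 to 125), but in CT this interval overlaps that of ependymal-like cells at 63.9 CPM (25.7 to 132). Ggct was also highest there, at 38.2 CPM (19.1 to 68.3) and 39.0 CPM (22.7 to 62.5), though these intervals overlap those of progenitor and neuron-like cells. Aifm2 stayed at 24 CPM or less in each class except activated NSC-like cells of CT, where it had no UMI.

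In progenitor and neuron-like cells (139 CT and 169 Opa1 cKO cells) 7 genes had enough UMIs, of which 2 were higher in Opa1 cKO and none was lower, where 15.2% of 7070 genes were higher and 19.9% lower. Chac1 stood at 13.3 CPM from 6 CT UMIs against 35.9 CPM from 21 Opa1 cKO UMIs (log2 ratio 1.43, 0.07 to 3.03). Fth1 had 942 and 1432 CPM, a log2 ratio of 0.60 (0.43 to 0.78) that lies at the limit. When cells were thinned to 1500 UMIs, no gene was counted as past the limit. Thinning left just 2 CT cells and 6 Opa1 cKO cells with any Chac1 UMI. For Chac1 this count therefore cannot tell a smaller ratio from too few UMIs. The make-up of this class also differed, as the 12 NSC pool markers summed to 5166 CPM in CT against 8408 CPM in Opa1 cKO and the 13 progenitor and neuron markers to 20254 against 15918 CPM, and the part of this in these ratios was not tested. Gpx4 stood at 538 and 693 CPM, a log2 ratio of 0.37 (0.13 to 0.60), and Ggct at 22.2 and 20.5 CPM, a log2 ratio of -0.11 (-1.45 to 1.26).

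Oligodendrocyte-like cells had a similar mt- share in both libraries, 4.96% of their UMIs in CT and 4.78% in Opa1 cKO. There the log2 ratios were -0.04 for Fth1 (-0.08 to 0.01), 0.06 for Ftl1 (-0.11 to 0.22), 0.11 for Gpx4 (-0.08 to 0.30) and 0.16 for Gclm (-0.41 to 0.75). The difference in mt- share was largest in ependymal-like cells, with 6.32% in CT and 1.11% in Opa1 cKO. Their log2 ratios were 0.41 for Fth1 (0.30 to 0.53), 0.51 for Ftl1 (0.26 to 0.78) and 0.48 for Gpx4 (0.22 to 0.74). Mural-like cells had mt- shares of 4.35% in CT and 2.51% in Opa1 cKO. Their Fth1 stood at 2204 CPM in CT against 3588 CPM in Opa1 cKO (log2 ratio 0.70, 0.53 to 0.88), and Gclm had 3 and 22 UMIs. For endothelial-like cells the mt- shares were 4.02% and 2.85%. Endothelial-like cells had log2 ratios of 0.38 for Fth1 (0.21 to 0.55) and 0.29 for Gpx4 (0.04 to 0.56). Globin transcripts were among the leading genes of their cluster, and the 4 red blood cell markers summed to 42.9 CPM in CT against 27701 CPM in Opa1 cKO, whose part in these ratios was not tested. Whether the ratios differ between classes or follow mt- share was not tested.

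Activated NSC-like cells numbered 11 in CT and 412 in Opa1 cKO, so the CT level rests on 29693 UMIs. A count of 0 there has an interval up to 124 CPM, and for a bound it was set at 3 counts, or 101.03 CPM. With log-normalization in place of SCTransform this class held 50 CT and 323 Opa1 cKO cells. By ratio 3 of 9 genes with enough UMIs were higher in Opa1 cKO (Fth1, Gclm and Gpx4) and none was lower, where 13.8% of 7363 genes were higher and 28.6% lower. Of the 9, Chac1, Gclc, Gss and Aifm2 had 0 CT UMIs. By the rule for 0 they could not count as lower, and as higher only at more than 1.5-fold above 101.03 CPM. The same rule applied to all genes, so these counts say little. The 9 activated NSC markers summed to 2189 CPM in CT against 1046 CPM in Opa1 cKO. Progenitor and neuron-like cells had 2284 and 2302 CPM of them, and Opa1 cKO NSC pool-like cells 236 CPM. The sum therefore does not set this class apart from progenitor and neuron-like cells, and it was lower in Opa1 cKO. In CT, 7 of the 9 were detected, with Egfr and Thbs4 at 0. The name is thus weakly borne out in both libraries. Markers of other types differed as well, with oligodendrocyte precursor markers at 909 CPM in CT against 135 CPM in Opa1 cKO. Progenitor and neuron markers stood at 2559.5 against 689 CPM and NSC pool markers at 29771 against 45279 CPM. The part of these markers in the ratios was not tested. Fth1 stood at 1516 CPM (1105 to 2028) from 45 CT UMIs against 4479.6 CPM (4366 to 4596) from 5849 Opa1 cKO UMIs. Its log2 ratio was 1.56 (1.14 to 2.02), while Gclm rested on 2 CT UMIs. Chac1 had 0 CT and 67 Opa1 cKO UMIs, which at this depth does not show a difference. Within Opa1 cKO, activated NSC-like cells had 39.8 CPM of Gclc (29.7 to 52.2) against 20.2 CPM in NSC pool-like cells, a log2 ratio of 0.98 (0.51 to 1.44). Ftl1 had 2580.2 against 1383 CPM, a log2 ratio of 0.90 (0.84 to 0.95), whereas Fth1 and Chac1 differed by 0.16 and -0.21.

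The other genes of these pathways were read from 7 lists with 108 genes, which were also chosen with earlier results of these data known. In NSC pool-like cells 94 of the 108 had enough UMIs. Of these 94, 23 were higher in Opa1 cKO and 6 lower, beside the 14.0% and 13.1% of all genes given above. Their median log2 ratio was 0.21. Between mt-low and mt-normal Opa1 cKO cells 22 of 92 were higher and 5 lower, close to the 22.8% and 6.47% of all genes. Relative to the median gene these became 10 and 10, for which no share of all genes is given. The list of glutathione synthesis and precursor supply had 7 of 11 genes higher and none lower between genotypes, with a median of 0.93, and 9 of 10 higher between mt-low and mt-normal cells, with a median of 1.43. Peroxidases, glutaredoxins and transferases had 6 of 25 higher and none lower between genotypes, but 2 of 24 higher and 4 lower between mt-low and mt-normal cells, with a median of 0.05. Between genotypes, iron handling had 2 of 19 higher and 1 lower, lipid peroxidation 3 of 14 higher and 2 lower, selenoprotein synthesis 3 of 10 higher and 1 lower, breakdown 1 of 6 higher and none lower, and NADPH supply and glutathione transport 1 of 9 higher and 2 lower.

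**Figure D5:**
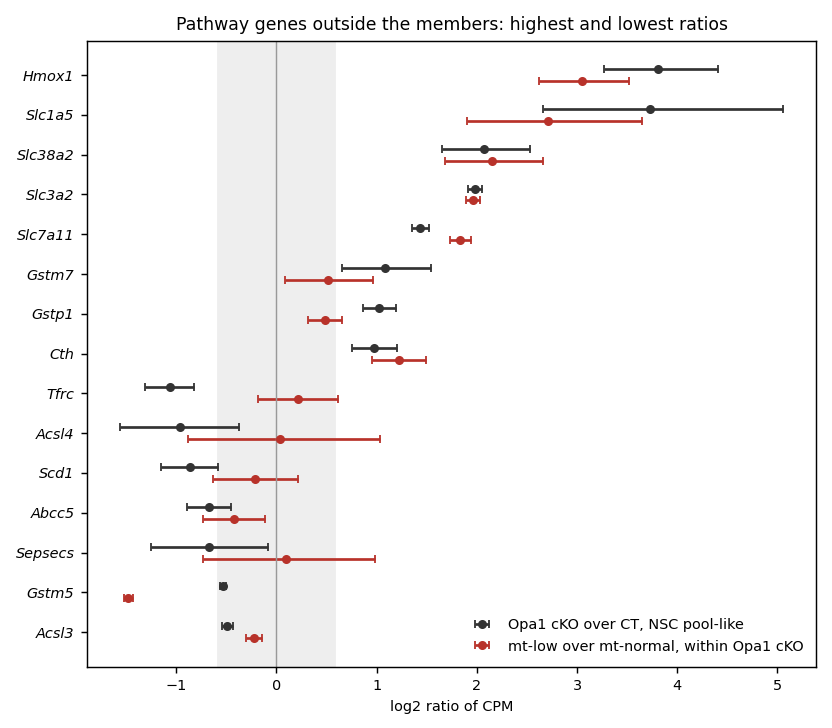
log2 ratio of CPM (x axis) of the 8 highest and 7 of the 8 lowest of 87 pathway genes with at least 100 UMIs, ordered by Opa1 cKO over CT in NSC pool-like cells (black), with mt-low over mt-normal within Opa1 cKO (red). Bars are 95% counting intervals and the grey band is 1.5-fold. Hmox1, Slc1a5, Slc38a2, Slc3a2, Slc7a11 and Cth were past 1.5-fold in both, whereas Tfrc and Acsl4 were lower between genotypes only.

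Of the 8 highest ratios, 5 were of genes of the list of synthesis and precursor supply. Slc7a11 encodes the cystine-glutamate exchanger of system xc-, whose partner chain is Slc3a2. Slc7a11 stood at 349 CPM in CT against 944 CPM in Opa1 cKO NSC pool-like cells (log2 ratio 1.44, 1.35 to 1.52). Within Opa1 cKO it was 1208 CPM in mt-low and 339 CPM in mt-normal cells, where CT mt-normal cells had 337 CPM. Slc3a2 had log2 ratios of 1.98 between genotypes (1.91 to 2.05) and 1.96 between mt-low and mt-normal cells (1.89 to 2.03). Slc1a5, a glutamine carrier, had 7 CT and 208 Opa1 cKO UMIs (log2 ratio 3.73, 2.66 to 5.06). The neutral amino acid carrier Slc38a2 stood at 13.0 and 54.7 CPM (log2 ratio 2.08, 1.65 to 2.53). Cth, which releases cysteine from cystathionine, stood at 53.5 and 105 CPM (log2 ratio 0.98, 0.75 to 1.20).

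Hmox1 encodes haem oxygenase-1, which frees iron from haem, and had the highest ratio of the 87 genes. It stood at 7.41 CPM (28 UMIs) in CT and 104 CPM (882 UMIs) in Opa1 cKO (log2 ratio 3.81, 3.27 to 4.41). The glutathione transferase genes Gstp1 and Gstm7 had log2 ratios of 1.03 (0.86 to 1.20) and 1.09 (0.66 to 1.54). Both were also past 1.5-fold between mt-normal cells of the 2 genotypes, at 0.67 (0.46 to 0.89) and 0.84 (0.26 to 1.43), where Slc7a11 was at 0.01 (-0.12 to 0.13). Hmox1 in that comparison had 25 CT and 45 Opa1 cKO UMIs (log2 ratio 1.33, 0.59 to 2.096).

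At the lower end, Tfrc, the receptor that takes up transferrin-bound iron, stood at 69.9 CPM in CT against 33.3 CPM in Opa1 cKO (log2 ratio -1.07, -1.31 to -0.82). It was low in both groups of Opa1 cKO cells, with 30.5 CPM in mt-normal and 35.3 CPM in mt-low cells (log2 ratio 0.21, -0.18 to 0.61). Acsl4, which activates the polyunsaturated fatty acids that peroxidise in ferroptosis, had 12.4 and 6.36 CPM (log2 ratio -0.97, -1.56 to -0.37). Scd1, a fatty acid desaturase, had 50.3 and 27.6 CPM (log2 ratio -0.87, -1.15 to -0.58). Between mt-low and mt-normal Opa1 cKO cells their log2 ratios were 0.04 for Acsl4 (-0.89 to 1.03) and -0.21 for Scd1 (-0.63 to 0.21).

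The others at this end were smaller or less certain. Abcc5, a glutathione conjugate and nucleotide exporter, had a log2 ratio of -0.68 (-0.90 to -0.46), and Sepsecs, which makes the selenocysteine tRNA, one of -0.67 (-1.25 to -0.08). Acsl3, which activates monounsaturated fatty acids, was within 1.5-fold at -0.49 (-0.54 to -0.43). The transferase gene Gstm5 was also within 1.5-fold between genotypes at -0.54 (-0.57 to -0.51). Between mt-low and mt-normal cells, though, it had 1539 and 4287 CPM (log2 ratio -1.48, -1.52 to -1.44), the reverse of the direction of Gpx4 and Fth1.

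The genes whose pattern was most like that of a member were found by Pearson's r of log2(CPM + 10) over 14 points, the 7 classes in each library, among 5486 genes. For Chac1 these were Psmc5 (r = 0.91), Eprs (0.91), Atf4 (0.89), Eif2s2 (0.85) and Hikeshi (0.85). For Gpx4 they were 1810037I17Rik (0.90), Pink1 (0.87), Aig1 (0.86), Fth1 (0.85) and 1810058I24Rik (0.84), and for Fth1 they were Cryab (0.95), Cd82 (0.93), Sec11c (0.93), Mrpl48 (0.92) and Mapre3 (0.92). The 14 points share 2 libraries, and those of Fth1 are spread mainly by oligodendrocyte-like cells. Those of Chac1 are spread mainly by the NSC pool-like, activated NSC-like and progenitor and neuron-like cells of Opa1 cKO. These values therefore describe the groups measured here.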

How the data were processed

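One droplet library per genotype was analysed. The deposited matrices hold counts of UMIs per gene and barcode, which the authors made with Cell Ranger on mm10. The submitters' processing notes list version 2.1.1, whereas the matrix headers name 3.1.0. The gene annotation used for counting was not given in the sources used here, and positions come from GENCODE on GRCm38.

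From these counts, barcodes were kept that had over 600 but fewer than 7500 genes, under 20% mt- UMIs and at least 1 YFP UMI. SCTransform (sctransform 0.4.2) and Seurat 5.3.0 in R 4.3.3 gave clusters from 8 components at resolution 0.2. Among the 50 genes of highest fold of a cluster, the markers of each type were counted, and the leading type gave the name if it had at least 3 there and at least 1 within the first 10. Clusters left over were called NSC pool-like by their NSC pool markers, of which 11 and 10 of 12 were over 2-fold higher than in the classes of other types. The form of this rule was set after the clusters were seen. Scrublet marked 5 CT barcodes and 1 Opa1 cKO barcode, too few for the caller to have worked, so doublets were not removed. No samples replicate a genotype, so the file allows no test. UMIs were summed per class and library, and scaled to 1000000. Intervals are exact Poisson for levels, exact binomial for ratios and Clopper-Pearson for shares, all at 95%, and cover counting error only. A group with 0 UMIs was set at 3 counts for a bound. The ratios, their intervals and the 1.5-fold calls were tested on simulated Poisson counts with 2-fold changes (Python 3.11.15, scipy 1.17.1, scanpy 1.11.5). These counts held no variation between cells or libraries. Clustering, class names, thinning and shares of cells were not tested in this way.

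The members and gene lists were chosen with earlier results of these data known. Besides the 10 genes, the text names Opa1, the 8 highest and 8 lowest other pathway genes with at least 100 UMIs, and the 5 genes most like Chac1, Gpx4 and Fth1 among those with at least 300 UMIs. Of the 8 lowest, 1 is not reported here. The counts of genes past 1.5-fold, the ratios of the 10 genes in both NSC pool-like comparisons and the Chac1 share were each recomputed under 10 to 17 other settings, of which up to 3 were chosen after the data were seen, and the other values under none.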

Additional observations from a re-analysis of the deposited data

Results flagged for a closer look

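The YFP filter left out 2396 CT and 2357 Opa1 cKO barcodes that passed the other filters and that the comparisons above do not use. In these barcodes Chac1 had 0 UMIs in CT and 145 UMIs, or 24.7 CPM (20.8 to 29.02), in Opa1 cKO, which with CT set at 3 counts is a log2 ratio of at least 5.47, or at least 44.2-fold higher. Ggct had 19 and 61 UMIs, a log2 ratio of 1.55 (0.79 to 2.38). Fth1 had 3030 CPM and 5015 CPM, a log2 ratio of 0.73 (0.70 to 0.75). These barcodes were not divided by class. Clustered with the others, all barcodes held 87 CT and 364 Opa1 cKO microglia-like cells, a class not found with the YFP filter, and 94 and 515 ependymal-like cells against 39 and 244 with it. The part of this make-up in the ratios was not tested. These values pool all types, and a missing YFP UMI can mean a cell without recombination or a transcript that was not captured.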

How the results depend on the processing

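No paired analysis was possible because each genotype had 1 library. Without the cells of the stress-gene cluster, an alternative chosen after the data were seen, Gpx4 (-0.0076) and Gclm (-0.0135) turned below 0 on the log2 scale in the comparison of genotypes in NSC pool-like cells, as did Gsr (-0.37) and Gclc (-0.28). The members past 1.5-fold there became 0, the pathway genes 6 higher and 10 lower, and the share of cells with a Chac1 UMI 0.396%. Thinning to 1500 UMIs left 3 members higher between genotypes and 1 higher in activated NSC-like and 0 in progenitor and neuron-like cells, with 1 member lower between mt-normal cells and 3 pathway genes lower in mt-low cells. With a limit of 2-fold, 2 members were higher in each of the 2 main comparisons and 1 in progenitor and neuron-like cells, and pathway genes were 7 higher and 2 lower between genotypes and 8 higher and 3 lower in mt-low cells. Median-of-ratios scaling gave 10 pathway genes higher and 10 lower in mt-low cells. Keeping cells without YFP gave 7 members higher between genotypes in NSC pool-like cells, 2 between mt-normal cells and 1 in progenitor and neuron-like cells. It also gave a Chac1 share of 6.995%. Log-normalization gave 8 members higher in mt-low cells. The shares of all genes printed in the results are those of the main settings, and none is given beside the counts in this paragraph. Over 13 settings the log2 ratio between genotypes in NSC pool-like cells ran from 0.34 to 0.98 for Fth1 and from 0.16 to 0.69 for Ftl1. In progenitor and neuron-like cells 1 member was higher without called doublets, without mt- UMIs in the total, or with at least 100 UMIs per gene. That last minimum gave 3 pathway genes lower in mt-low cells, and leaving out mt- UMIs gave 1 member lower in activated NSC-like cells. Bounds of 0.5% and 4% gave 8 pathway genes lower, and a bound of 2% gave 1 member higher between mt-normal cells. The Chac1 share was 5.599% at 1000 UMIs and 15.5% without thinning. Gclc kept its sign in 8 of 13 settings. Where no construction shows it, the cause was not tested. The activated class could not be rebuilt without the YFP filter. Nor could it be when members, mt- genes and ATF4 target genes were left out of the clustering together. With pooled mice, 1 library per genotype and 11 activated CT cells, depth and differences between mice limit the small ratios, and the intervals of Gss and Ggct run from near 0 to past 2-fold.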
